A study of Oncorhynchus mykiss with 6 samples.

Results

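The glutathione metabolism genes of rainbow trout (Oncorhynchus mykiss) skin were taken as the 90 rows, of 43862 in the deposited gene table, whose pathway annotation included the KEGG map of glutathione metabolism. They were sorted by product name into 23 transferases, 10 peroxidases, 5 synthesis enzymes, 11 enzymes of glutathione reduction and NADPH supply, 27 breakdown enzymes and peptidases, 10 enzymes of polyamine and nucleotide synthesis that share the map, and 4 N-acetyltransferases. Fish of a yellow mutant gave dorsal skin RNA at ages of 1 day and 90 days, and each age was sequenced in 3 libraries. All 6 libraries carried the yellow phenotype, so ages were compared and colours were not. The series was set up to look for genes of skin colour formation over 3 stages, of which 1 was not analysed here. Nothing in the labels makes the replicates separate fish, so p-values here reflect only the spread between libraries, which may be technical.

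Levels are given as FPKM, read fragments scaled by gene length and by the reads mapped in the library, as mean ± SD over the 3 libraries of an age. Fold changes are log2 of day 90 over day 1 ± SE from the quasi-likelihood test of edgeR on the deposited counts with TMM scaling, adjusted by Benjamini and Hochberg's method over all 29436 genes tested. A gene was called higher or lower at an adjusted p under 0.05. Copies that share a symbol are told apart by the deposited gene number in brackets, and names beginning with MSTRG are assembled loci outside the annotation.

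Glutathione is a tripeptide of glutamate, cysteine and glycine and the main low-molecular-weight thiol of animal cells. It is made by glutamate-cysteine ligase, which has a catalytic subunit (GCLC) and a modifier subunit (GCLM), and then by glutathione synthetase (GSS). Peroxidases oxidise it while they reduce peroxides, glutathione reductase restores it with NADPH, and transferases couple it to electrophilic compounds. Gamma-glutamyl enzymes, cyclotransferases and aminopeptidases take the tripeptide and its conjugates apart. Skin faces oxygen, light and foreign compounds directly, and pigment synthesis is itself an oxidative process.

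Total counts ran from 16157312 to 18960866 per library. The labelled tissue was checked with marker lists, each summed in FPKM. Epidermal markers summed to 3775 to 3787 at day 1 and 13042 to 16232 at day 90, and dermal markers to 2071 to 3007 and 20279 to 21870. Markers of other tissues were present at day 1 despite the skin label. The lens and retina list summed to 2497 to 3154 at day 1 against 94.0 to 102.8 at day 90. The liver list summed to 864 to 1573 against 152 to 172, and of its 47 genes 39 had a mean of at least 1 FPKM at day 1 and 4 at day 90. The neural list summed to 1046 to 1168 against 329 to 377, and leukocyte markers to 28.8 to 38.2 against 560 to 676. Muscle markers summed to 21352 to 26950 at day 1, and at day 90 to 11524 in replicate 1 and 3520 and 3340 in replicates 2 and 3. The part of these shifts in the results was not tested, and fewer cells of a type and less RNA per cell cannot be told apart in such bulk samples.

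At day 90 most transferases, most peroxidases and, with TMM scaling, most enzymes of glutathione reduction and NADPH supply were higher than at day 1, and the synthesis enzymes that changed had fallen. Of the 90 genes, 77 could be tested, 41 were higher, 19 were lower and 17 did not pass the threshold. Across all genes tested 67.9% were called, 32.5% higher and 35.4% lower, beside 77.9%, 53.2% and 24.7% of the glutathione genes. The median log2 change was 0.45 over the 77 genes and -0.03 over all genes tested. The 22 genes that rose at least 2-fold compare with 16.2% of all genes, and the 10 that fell at least 2-fold with 22.6%. On TMM-scaled counts the ages did not overlap in 62 of the 77 genes, against 73.3% of all genes. The test was open to 12 of the 77 only through 1 age, 9 through day 1 and 3 through day 90. In these genes all 3 libraries reached 1 FPKM at that age alone, which favours a difference without forcing one.

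The scaling sets the zero line of these values. With library sizes alone in place of TMM factors the median change of all genes was -0.43, and the median ratio of the mean FPKM of all genes was -0.39, so FPKM ratios stand lower than the fitted changes throughout. Under that scaling 28 of the 41 higher calls and 19 of the 19 lower calls were kept. It called 20.2% of all genes tested higher and 50.6% lower, which are shares of genes and not of calls kept. Of the calls among the glutathione genes 68.3% were higher with TMM and 54.9% with library sizes alone, beside 47.9% and 28.5% of the calls over all genes. No called gene was called in the other direction under any of the 15 alternative fits. The authors' deposited table gave 39 of the 90 genes higher and 25 lower at an FDR under 0.05, beside 23.5% and 32.3% of all its genes. Of the 60 calls made here, 54 were shared with it in the same direction.

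**Figure D1:**
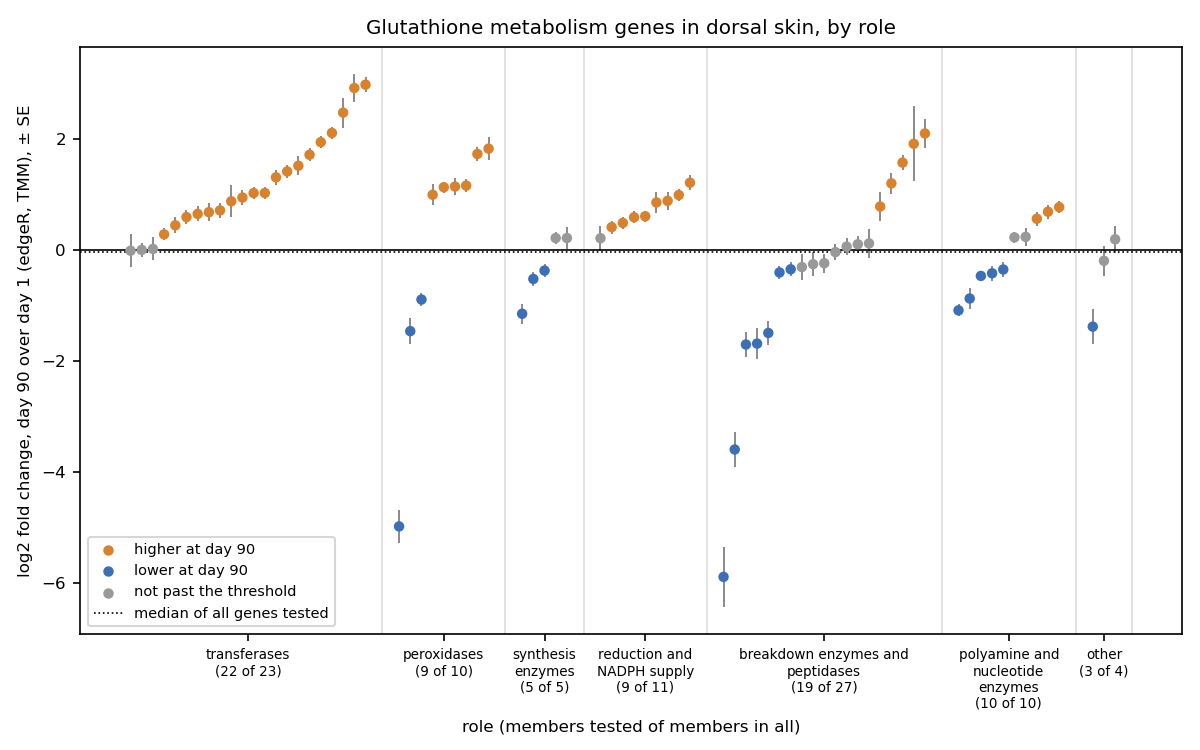
Log2 fold change of day 90 over day 1 (edgeR, TMM) for each tested glutathione gene, grouped by role along the horizontal axis, with 1 point per gene and bars for ± SE, orange for higher, blue for lower and grey for genes not past the threshold. The dotted line is the median of all genes. Transferases lay mostly above the zero line, with a median of 0.99, and synthesis enzymes lay between -1.15 and 0.22, while breakdown enzymes ran from -5.89 to 2.11.

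Summed over their members, transferases took 541 ± 33 FPKM at day 1 and 1322 ± 66 at day 90, 2.45 times as much. Peroxidases summed to 150 ± 3.6 and 206 ± 4.7 FPKM, a ratio of 1.37. Synthesis enzymes summed to 41.4 ± 1.6 and 28.5 ± 3.4 FPKM, a ratio of 0.689. Day 1 and day 90 were apart in each of these 3 sums, which are taken over members of unequal level and describe mainly the most abundant genes. Breakdown enzymes and peptidases went from 153 ± 6.2 to 103 ± 7.6 FPKM without overlap. The reduction and NADPH enzymes, at 410 ± 13 and 437 ± 72 FPKM, and the polyamine and nucleotide enzymes, at 358 ± 10 and 366 ± 17 FPKM, overlapped between the ages. On TMM-scaled CPM these 2 sums did not overlap. Reduction and NADPH supply was at 692 to 764 against 869 to 1274, and the polyamine and nucleotide enzymes at 694 to 696 against 843 to 1018. On that scale the falls were smaller, though still without overlap, with a ratio of 0.894 for synthesis enzymes and 0.933 for breakdown enzymes and peptidases. The ratios of transferases and peroxidases were larger there, at 3.12 and 1.79.

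**Figure D2:**
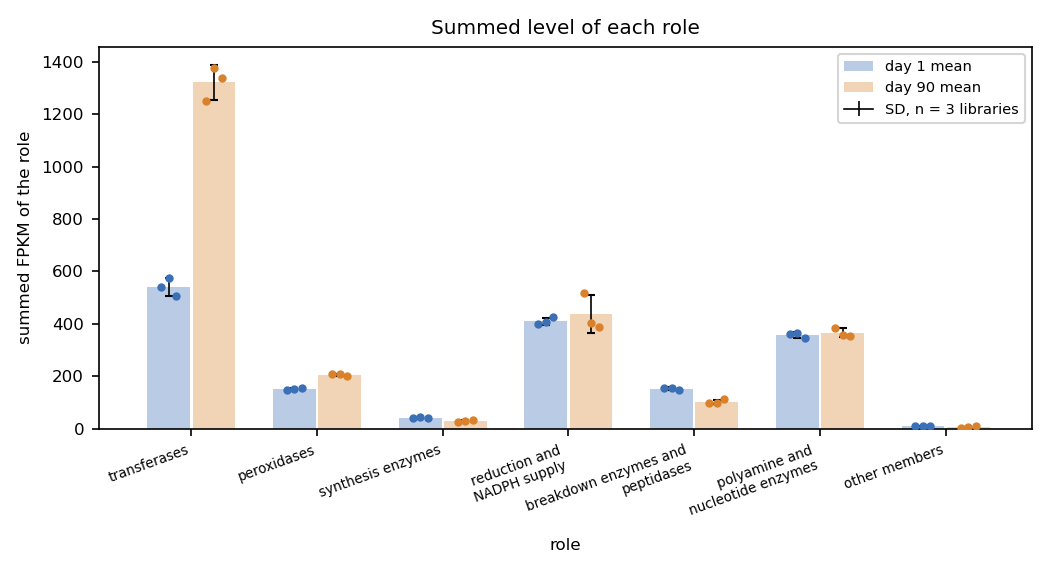
Summed FPKM of each role, with bars for the mean of an age, black lines for the SD (n = 3) and points for the libraries, blue for day 1 and orange for day 90. The transferase sums of the day 90 libraries, 1250 to 1378 FPKM, lay above those of the day 1 libraries, 507 to 574 FPKM, whereas the reduction and NADPH sums overlapped in FPKM, though not on TMM-scaled counts.

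Glutathione transferases attach glutathione to electrophiles, and the cytosolic classes are named by Greek letters. Of 22 tested transferases 19 were higher, none was lower and 3 did not pass, with a median log2 change of 0.99. That is 86.4% higher, beside 32.5% of all genes tested higher and 35.4% lower. Of the 22, 11 rose at least 2-fold, beside 16.2% of all genes tested. Their libraries did not overlap between the ages, but neither did those of any of the 60 called members or of 73.3% of all genes tested. MGST2 and HPGDS met the filter through day 90 alone.

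The rho-class gene GST1 (100301730), a class known from fish, was the most abundant transferase at day 90. It read 83.1, 86.9 and 75.0 FPKM at day 1 and 479.5, 536.2 and 470.7 at day 90. The change was 2.99 ± 0.13 on the log2 scale, a 7.93-fold rise (edgeR adjusted p = 1.4e-07). Every day 90 library stood far above every day 1 library, and the rho gene's share of all transferase FPKM went from 15.1% ± 0.30 to 37.5% ± 2.0. The 5 transferases of highest mean FPKM over the 6 libraries together held 53.7% ± 0.52 of the transferase FPKM at day 1 and 68.7% ± 2.4 at day 90. Day 90 weighed more in that choice, so part of the larger share at day 90 may come from the choice itself.

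The mu-class gene GSTM3 (110492601) was at 86.2 ± 7.0 FPKM at day 1, near the level of GST1, and at 177 ± 20 at day 90. Its change was 1.42 ± 0.12 (edgeR adjusted p = 6.6e-06). The 3 pi-class genes GSTP1, whose human counterpart is a common transferase of surface epithelia, all rose. GSTP1 (110488957) read 49.5, 60.4 and 54.5 FPKM at day 1 and 112.9, 99.4 and 100.2 at day 90, a change of 1.32 ± 0.13 (edgeR adjusted p = 2.1e-05). The neighbouring copies GSTP1 (110505158) and GSTP1 (110505157), adjacent in the gene order of the rainbow trout RefSeq annotation, changed by 0.95 ± 0.13 and 1.03 ± 0.12. Reads of such neighbours may be shared between copies, since how the authors counted reads with several matches is not stated.

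The alpha class, which in mammals also reduces organic peroxides, rose in its 3 tested members. GSTA1 (110502707) read 14.7, 16.9 and 10.2 FPKM at day 1 and 37.0, 58.2 and 85.5 at day 90. Its change was 2.48 ± 0.27 (edgeR adjusted p = 3.0e-05), and the day 90 libraries, though all above day 1, spread over more than the whole day 1 level. GSTA2 (110499387) went from 15.5 ± 1.7 to 51.4 ± 4.3 FPKM, a change of 2.12 ± 0.11. The lowest GSTA1 value at day 90 was in replicate 1, the library with the highest muscle markers, and without that library the change was 2.69. The alpha-like gene without a symbol (110488083) changed less, by 0.60 ± 0.12, and was not called with library sizes alone.

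The theta, kappa and omega classes were split. Gstt3 (110509522) rose from 15.5 ± 1.3 to 45.7 ± 1.5 FPKM, a change of 1.95 ± 0.11 (edgeR adjusted p = 4.1e-07). Of the GSTT1 copies, 110525515 rose by 0.66 ± 0.13 and 110535746 did not pass, at 0.03 ± 0.21. GSTK1, the kappa-class enzyme of mitochondria and peroxisomes, had a copy (110509171) that rose by 0.72 ± 0.13 and a copy (100305229) that did not pass, at 0.01 ± 0.12. The latter was called lower with library sizes alone. GSTO1 (100301789), the omega-class gene, read 34.3, 33.8 and 30.8 FPKM at day 1 and 26.0, 31.2 and 35.5 at day 90. Its libraries overlapped in FPKM although it was called higher with TMM, at 0.29 ± 0.11 (edgeR adjusted p = 0.039), and with library sizes alone its change was -0.10. The call was also lost, at 0.18 to 0.30, when any library other than replicate 1 of day 90 was left out.

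The microsomal transferases belong to a separate membrane protein family. MGST3 rose in each of its 3 copies, from 29.0 ± 2.1 to 73.4 ± 2.9 FPKM in the most abundant at day 90 (110508527). Its change was 1.72 ± 0.12, beside 1.53 ± 0.17 for MGST3 (110530534) and 1.03 ± 0.11 for Mgst3 (110498009). MGST2 (110489469) stood at 0.83, 1.17 and 0.80 FPKM at day 1 and 4.46, 5.68 and 6.37 at day 90. The log2 change of 2.93 ± 0.26 was close in size to that of GST1 but at a far lower level. Among the MGST1 genes, 110527633 rose by 0.45 ± 0.14 and 118942842 by 0.69 ± 0.16, and 110527635 did not pass, at -0.01 ± 0.30. Neither MGST1 rise was called with library sizes alone, and that of 110527633 was lost, at 0.36 to 0.46, without replicate 2 or 3 of either age. HPGDS (110525250), a sigma-class transferase whose mammalian counterpart makes prostaglandin D, rose by 0.88 ± 0.29 (edgeR adjusted p = 0.021) from 1.05 ± 0.21 FPKM. Its call was lost without replicate 2 of day 1 (0.76), replicate 3 of day 1 (0.83) or replicate 1 of day 90 (0.75).

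**Figure D3:**
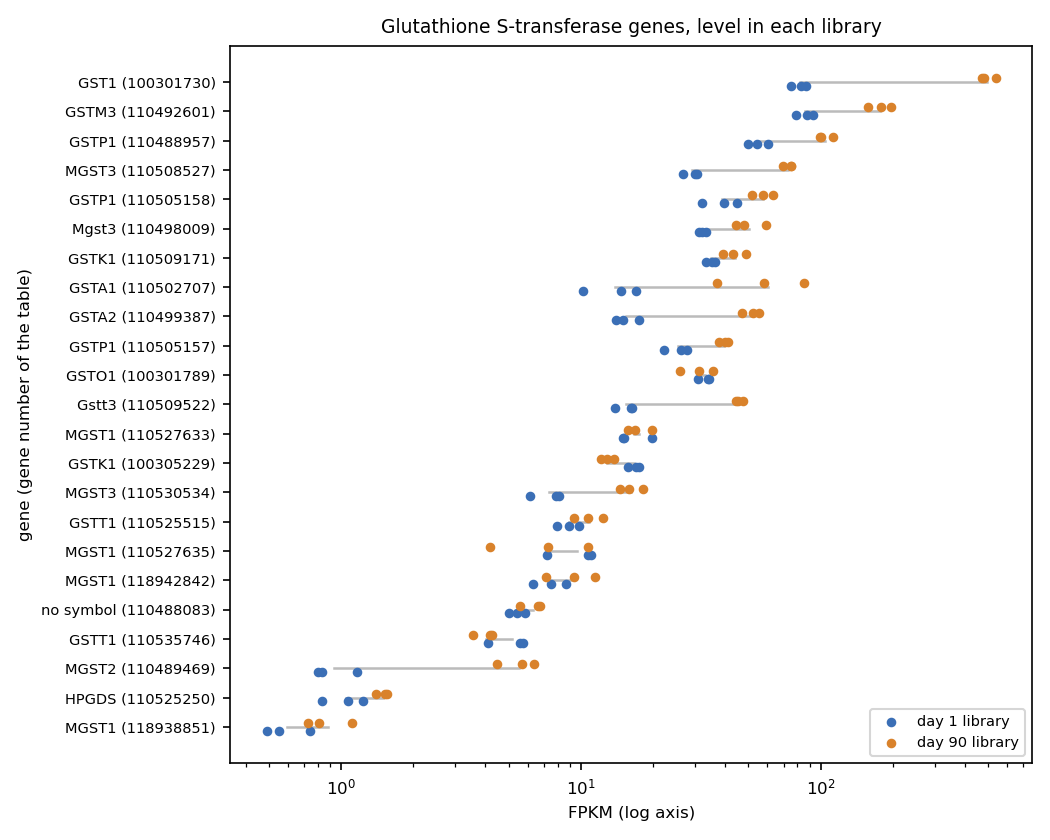
FPKM of the transferases on a log axis, with 1 point per library (blue for day 1, orange for day 90) and a grey line between the means of the ages. GST1 rho moved from 75.0 to 86.9 FPKM up to 470.7 to 536.2, and GSTO1 overlapped between the ages.

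With library sizes alone 13 of the 19 higher transferase calls were kept. The 6 lost were GSTO1, HPGDS, GSTT1 (110525515), both MGST1 genes and the gene without a symbol, all with a log2 change under 1 with TMM. The rises of GST1, GSTM3, GSTP1 (110488957) and MGST2 were kept under every alternative that tested them.

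Glutathione peroxidases use glutathione to reduce hydrogen peroxide and lipid peroxides. All 9 tested members changed, 6 upward and 3 downward, and these 9 calls were kept with library sizes alone. With TMM that is 66.7% higher and 33.3% lower, beside 32.5% and 35.4% of all genes tested. The share that fell was thus near that of all genes. The members that rose carried the symbols GPX1, GPX4, GPX7 and gpx8, and those that fell carried GPX2, Gpx3 and Gpx6.

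GPX1 (100135925), the selenium-dependent enzyme of the cytosol in mammals, read 36.9, 40.7 and 36.5 FPKM at day 1 and 59.9, 66.4 and 65.9 at day 90. It rose by 1.14 ± 0.10 (edgeR adjusted p = 6.3e-06) without overlap. GPX4 (MSTRG.12990), which reduces lipid hydroperoxides in membranes, read 34.4, 38.6 and 41.3 FPKM and then 71.8, 66.2 and 55.6. Its change of 1.15 ± 0.15 (edgeR adjusted p = 0.00011) matched that of GPX1 in size. The day 90 library with the highest GPX4 value, replicate 1, was the one with the lowest GSTA1 value.

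GPX7 and GPX8 sit in the endoplasmic reticulum, where they are tied to the oxidative folding of proteins. The copy of gpx8 numbered 110525174 rose from 8.22 ± 0.085 to 20.9 ± 1.8 FPKM, by 1.74 ± 0.13, and the copy MSTRG.18238 rose from 12.2 to 13.8 FPKM over the day 1 libraries to 21.6 to 22.7 at day 90, by 1.17 ± 0.12. GPX7 (MSTRG.7710) rose by 1.83 ± 0.21 from 3.46 ± 0.51 FPKM and GPX7 (MSTRG.7709) by 1.00 ± 0.19 from 7.01 ± 0.88. All 4 of these copies were higher in every day 90 library than in any day 1 library. On TMM-scaled counts the ages did not overlap in 73.3% of all genes tested either. Dermal markers, which include genes of secreted matrix, rose 8.02-fold in summed FPKM over the same ages, and their part in these changes was not tested.

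Gpx3 (MSTRG.40973), a secreted plasma enzyme in mammals, read 7.68, 8.51 and 12.5 FPKM at day 1 and 2.55, 2.30 and 3.20 at day 90. It fell by 1.46 ± 0.23 on the log2 scale (edgeR adjusted p = 0.00041). The gene with the symbol GPX2 (MSTRG.27816), described as a form of glutathione peroxidase 1, went from 26.1 ± 1.5 to 10.8 ± 1.2 FPKM, a change of -0.89 ± 0.12. The steepest fall was in Gpx6 (110531565), named gpx9 in the RefSeq annotation, from 5.82 ± 0.57 to 0.137 ± 0.040 FPKM. Its change was -4.98 ± 0.30 (edgeR adjusted p = 7.7e-07), and it met the filter through day 1 alone. Another GPX2 locus (MSTRG.34154) was too low to test and had 61 counts over the day 1 libraries and 1 over the day 90 libraries, a normalized ratio of 44.9 with an exact 95% interval of 7.75 to 1800. Liver and lens markers fell with these genes, and their part was not tested.

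**Figure D4:**
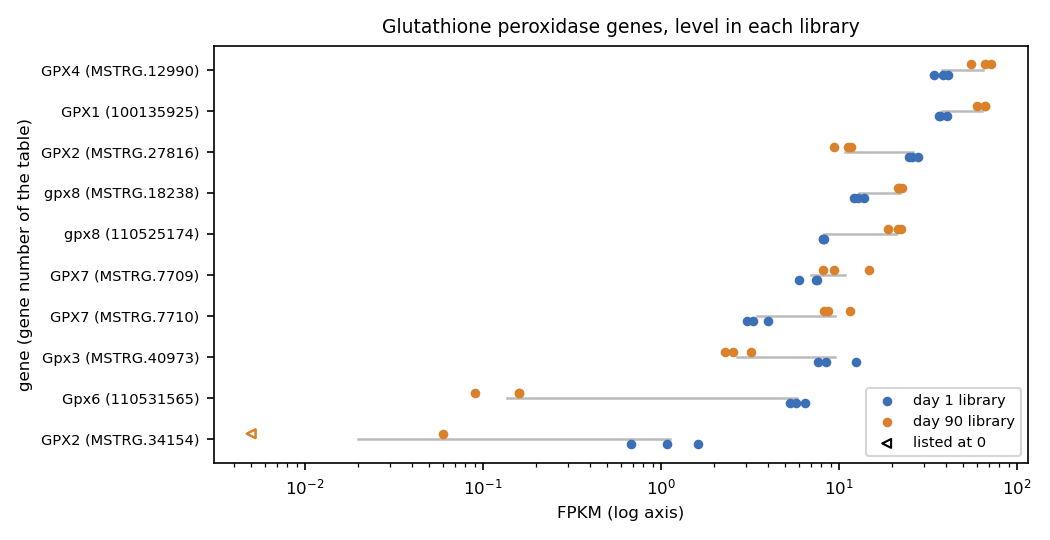
FPKM of the glutathione peroxidases on a log axis, with 1 point per library (blue for day 1, orange for day 90), a grey line between the means of the ages and an open triangle for libraries listed at 0. GPX1 and GPX4 rose from 34.4 to 41.3 FPKM up to 55.6 to 71.8, and Gpx6 fell from 5.31 to 6.44 FPKM to 0.16 and less.

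The glutathione synthesis enzymes held no gene that rose. Of the 5 genes, 3 were lower, 2 did not pass and none was higher. With TMM that is 60.0% lower, beside 35.4% of all genes tested lower and 32.5% higher. The 3 lower calls were kept with library sizes alone, which called 50.6% of all genes tested lower. The median log2 change was -0.37, beside -0.03 for all genes.

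Gclc (110502703), a catalytic subunit of the rate-limiting ligase, read 4.16, 4.30 and 4.36 FPKM at day 1 and 1.27, 1.90 and 1.30 at day 90. It fell by 1.15 ± 0.18 on the log2 scale (edgeR adjusted p = 0.00035), with a wide gap between the ages. The more abundant copy of Gclc (110499382) read 9.32, 9.60 and 8.29 FPKM and then 5.39, 8.12 and 11.1. Its day 90 libraries spread over both sides of day 1, and its change was 0.22 ± 0.19 (edgeR adjusted p = 0.33). That value hung on single libraries, as it was 0.41 with an adjusted p of 0.024 in edgeR without replicate 1 of day 90 and -0.0449 without replicate 3.

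GCLM, the modifier subunit, fell in both copies. GCLM (110524422) read 10.1, 10.9 and 11.1 FPKM at day 1 and 5.50, 6.30 and 5.33 at day 90. Its change was -0.52 ± 0.13 (edgeR adjusted p = 0.0048). GCLM (110521555) went from 8.05 ± 0.19 to 4.79 ± 0.15 FPKM, a change of -0.37 ± 0.11 (edgeR adjusted p = 0.018), a call that was lost, at -0.36, without replicate 2 of day 1. On the FPKM scale the libraries of the ages were well apart in both copies. GSS read 9.85, 9.91 and 8.12 FPKM at day 1 and 7.84, 8.47 and 8.61 at day 90. These values overlapped, and the change of 0.22 ± 0.11 did not pass (edgeR adjusted p = 0.098).

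**Figure D5:**
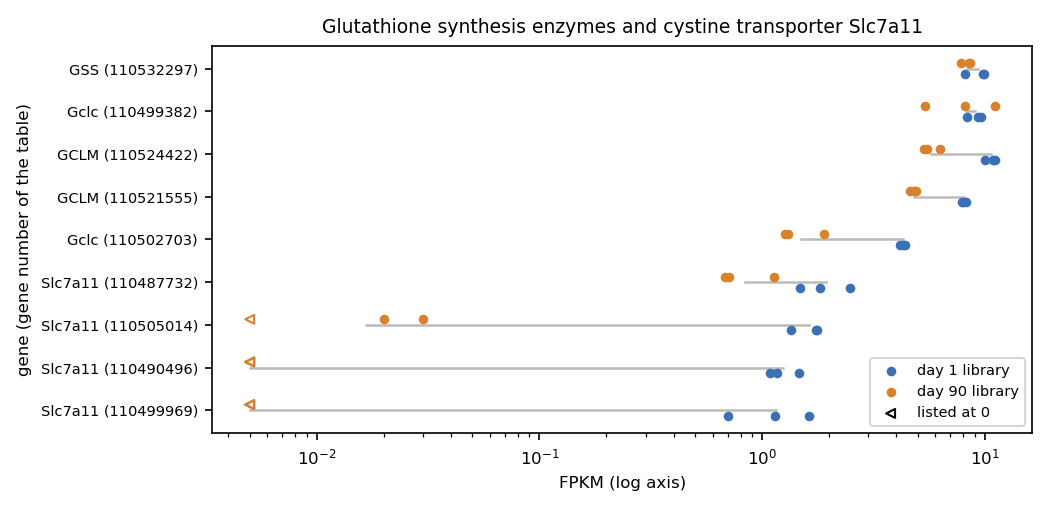
FPKM of the 5 glutathione synthesis genes and of 4 copies of the cystine transporter Slc7a11 on a log axis, with 1 point per library (blue for day 1, orange for day 90), a grey line between the means of the ages and an open triangle for libraries listed at 0. Both GCLM copies and Gclc (110502703) lay lower in all day 90 libraries, while GSS and Gclc (110499382) overlapped between the ages.

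Each Gclc gene lies beside an alpha-class transferase in the RefSeq gene order, with 3 genes between them in both places. GSTA2 (110499387) rose by 2.12 beside Gclc (110499382), which did not pass, and GSTA1 (110502707) rose by 2.48 beside Gclc (110502703), which fell by 1.15. The day 90 values of GSTA1 and of Gclc (110499382), which is not its neighbour, had the same order over the replicates, lowest in replicate 1 and highest in replicate 3. GSTA2 (110499387), GSTO1 and MGST2 had that order as well, so it was not particular to this pair. An order over 3 libraries cannot show that genes vary together. The neighbour of GSTA1, Gclc (110502703), did not have that order.

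Cystine enters cells through the exchanger made of SLC7A11 and SLC3A2, which are not on the pathway map and were read from a list of antioxidant partner genes. Slc7a11 (110505014) had 281 counts over the day 1 libraries and 3 over the day 90 libraries, a normalized ratio of 68.9 with an exact 95% interval of 23.3 to 336. Slc7a11 (110490496) had 141 counts at day 1 and none at day 90, which puts it at least 34.6-fold lower against a floor of 3 counts over the age. Slc7a11 (110499969) had 139 and none, at least 34.1-fold lower. All 3 were low already at day 1, and the intervals and floors cover counting error only. The remaining copy, Slc7a11 (110487732), read 1.82, 2.48 and 1.48 FPKM and then 0.68, 0.71 and 1.13, a change of -0.84 ± 0.26 (edgeR adjusted p = 0.017). That call was lost without replicate 2 of day 1 (-0.64) or replicate 2 of day 90 (-0.76). Every tested Slc7a11 copy met the filter through day 1 alone. Of 3 tested Slc3a2 genes 2 were lower, beside 35.4% of all genes tested, 110500797 at -0.74 ± 0.13 and 110509955 at -0.42 ± 0.11. The most abundant copy, 110533969, did not pass, at -0.12 ± 0.11, with 31.1 ± 1.8 FPKM at day 1 and 21.9 ± 0.62 at day 90. The summed lens and retina, liver and neural markers also fell between these ages, and their part in the falls of Slc7a11 and of the 2 lower Slc3a2 genes was not tested.

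Glutathione reductase and the dehydrogenases that make NADPH keep glutathione in its reduced form. Of 9 tested members 8 were higher, none was lower and 1 did not pass, with a median log2 change of 0.61. That is 88.9% higher, beside 32.5% of all genes tested higher and 35.4% lower. These rises were small, and with library sizes alone 4 of the 8 were kept, where 20.2% of all genes tested were called higher. Gsr, PGD and Txndc12 were among the 4 lost.

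Gsr, glutathione reductase itself, read 20.1, 23.6 and 22.8 FPKM at day 1 and 21.8, 24.5 and 21.2 at day 90. Its FPKM values overlapped, and its call at 0.42 ± 0.12 (edgeR adjusted p = 0.010) was lost with library sizes alone. It was lost as well without replicate 1 of day 1 (0.34) or replicate 2 of day 90 (0.33). PGD, an NADPH-forming enzyme of the pentose phosphate pathway, went from 52.1 ± 4.3 to 60.2 ± 1.5 FPKM, a change of 0.60 ± 0.11.

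The isocitrate dehydrogenases supplied most of the FPKM of this role. IDH2 (110521263), a mitochondrial form, read 199.0, 202.9 and 230.1 FPKM at day 1 and 251.2, 156.6 and 149.95 at day 90. Its high day 90 library was replicate 1, which also had the muscle markers at 11524 FPKM against 3340 and 3520 in the others. The change was 0.22 ± 0.23 (edgeR adjusted p = 0.42), and without that library it was -0.13. IDH2 (110495940) had the same high library, at 93.5 FPKM against 66.3 and 63.4, and rose by 0.86 ± 0.19 (edgeR adjusted p = 0.0025), or by 0.60 without it. The cytosolic Idh1 copies rose by 1.00 ± 0.11 (110520228) and 0.89 ± 0.16 (110501851). Txndc12, a thioredoxin-like protein of the endoplasmic reticulum, rose by 0.61 ± 0.10 from 28.2 ± 1.8 FPKM.

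Breakdown enzymes and peptidases had no common direction. Of 19 tested members 5 were higher, 7 were lower and 7 did not pass, with a median log2 change of -0.23. These shares, 26.3% higher and 36.8% lower, were near the 32.5% and 35.4% of all genes tested. The filter was met through day 1 alone by 6 of the 19 and through day 90 alone by 1, and 8 further members were too low to test. With library sizes alone the rises of Ggt5 (110523720) and ANPEP (MSTRG.36560) were lost, and GGCT (110496513), Oplah and chac2 (118947022) were called lower.

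ChaC enzymes cleave intracellular glutathione. The gene chac1 (110522620) was the most abundant of the role and read 93.6, 94.8 and 91.3 FPKM at day 1 and 49.3, 49.8 and 63.7 at day 90. It fell by 0.40 ± 0.12 on the log2 scale (edgeR adjusted p = 0.014), with a gap between the ages in FPKM, and the call was lost, at -0.36, without replicate 2 of day 90. The chac2 copies did not pass, at -0.25 ± 0.22 (118947022) and 0.12 ± 0.26 (110518873). Among the gamma-glutamylcyclotransferases GGCT, 110511884 fell by 1.68 ± 0.28 from 4.37 ± 0.46 FPKM and 110496513 did not pass, at -0.30 ± 0.23. Oplah, which opens the ring of the oxoproline that these enzymes release, did not pass either, at -0.23 ± 0.17.

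Gamma-glutamyltransferases act on glutathione outside the cell, at the plasma membrane. Ggt1 (110523721) fell by 1.70 ± 0.23 from 1.68 ± 0.12 FPKM, and its neighbour Ggt5 (110523720) rose by 0.79 ± 0.26, a call lost without replicate 2 (0.75) or 3 (0.73) of day 90. Of the other Ggt5 copies, 110525557 fell by 1.49 ± 0.22 and 110537206 rose by 1.58 ± 0.14, from 1.30, 1.86 and 1.23 FPKM to 3.10, 3.15 and 3.03. The copies thus moved apart, and all were low. Ggt1 (110523721) and Ggt5 (110525557) met the filter through day 1 alone. GGT7 (110492530) went from 8.37 ± 0.46 to 5.09 ± 1.0 FPKM, a change of -0.34 ± 0.13 that lay near the threshold (edgeR adjusted p = 0.037) and was lost, at -0.38 to -0.29, when any library other than replicate 3 of day 90 was left out.

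Aminopeptidase N (ANPEP) trims the dipeptide that gamma-glutamyltransferase leaves and is known in mammals from the brush border of the gut and kidney. ANPEP (110527036) had 267 counts over the day 1 libraries and 3 over the day 90 libraries, a normalized ratio of 65.4 with an exact 95% interval of 22.2 to 319. ANPEP (110495340) fell by 3.59 ± 0.32 (edgeR adjusted p = 8.9e-06), from 2.41 ± 0.41 to 0.153 ± 0.085 FPKM. Both of these copies met the filter through day 1 alone. Other copies rose. ANPEP (110516289), adjacent to the first in the RefSeq order, read 5.74, 5.30 and 3.39 FPKM and then 8.57, 8.39 and 8.02, a change of 1.21 ± 0.19. ANPEP (MSTRG.36561) rose by 2.11 ± 0.26 from 2.01 ± 0.36 FPKM. The nearby name MSTRG.36560 was at 1.30, 1.43 and 0 FPKM at day 1 and 3.35, 2.34 and 2.01 at day 90, so it met the filter through day 90 alone. Its call at 1.92 ± 0.68 (edgeR adjusted p = 0.030) included a library listed at 0 and was lost without replicate 1 (1.61) or 2 (1.96) of day 90. Over all 8 ANPEP loci the mean FPKM summed to 14.0 at day 1 and 17.8 at day 90. The leucine aminopeptidase copies lap3 did not pass, at 0.07 ± 0.15 (110514921) and 0.11 ± 0.16 (110512263).

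The map also holds enzymes of polyamine and deoxynucleotide synthesis, the latter tied to glutathione through the reducing power ribonucleotide reductase needs. Of 10 tested members 3 were higher, 5 were lower and 2 did not pass. That is 30.0% higher and 50.0% lower, beside 32.5% and 35.4% of all genes tested. Spermidine synthase (Srm) read 25.0, 23.8 and 22.2 FPKM at day 1 and 7.27, 8.78 and 9.69 at day 90. It fell by 1.08 ± 0.11 on the log2 scale (edgeR adjusted p = 1.6e-05), the largest fall of the role. Spermine synthase (SMS) fell in both copies, by 0.41 ± 0.14 (110510052) and 0.35 ± 0.13 (110534059). The first call was lost without replicate 3 of day 1 (-0.31) or replicate 2 of day 90 (-0.36), and the other, at -0.33 to -0.30, without replicate 2 or 3 of either age. Ornithine decarboxylase, which makes the putrescine that Srm uses, went the other way in odc1-a (110497782), from 39.6 ± 1.2 to 52.0 ± 0.88 FPKM, a change of 0.78 ± 0.11, and did not pass in odc1-a (110505682), at 0.24 ± 0.16.

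Ribonucleotide reductase is made of a large subunit (rrm1) and a small one (rrm2, or Rrm2b outside S phase). The abundant small subunit rrm2 (110529451) read 137.1, 143.2 and 129.9 FPKM at day 1 and 178.2, 168.0 and 161.0 at day 90, a rise of 0.70 ± 0.12 (edgeR adjusted p = 0.00083). The large subunit rose in rrm1 (110533741), by 0.57 ± 0.13, and fell in rrm1 (110537378), by 0.46 ± 0.09. With library sizes alone the former was at 0.17 and not called. Rrm2b, which in mammals is induced by DNA damage, went from 5.56 ± 0.17 to 2.31 ± 0.41 FPKM, a change of -0.87 ± 0.19. Markers of dividing cells summed to 734 to 761 FPKM at day 1 and 784 to 872 at day 90, and their part in the rrm2 rise was not tested.

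NAT8 enzymes acetylate cysteine conjugates in the last step of the mercapturate route in mammals, the path by which transferase products are excreted. Of 3 tested genes 1 was lower, a share of 33.3% that was near the 35.4% of all genes tested. Nat8 (MSTRG.31241) read 4.24, 3.72 and 4.26 FPKM and then 0.60, 1.03 and 1.87, a change of -1.38 ± 0.32 (edgeR adjusted p = 0.0039). It met the filter through day 1 alone. The others were at -0.19 ± 0.27 (110505940) and 0.20 ± 0.24 (110528564). The fourth gene (110492903), which has no symbol, had 88 counts over the day 1 libraries and none at day 90, at least 21.6-fold lower against the floor.

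The 13 members that were not tested were low at both ages. Of these, 9 were lower in every day 90 library than in any day 1 library and 1 was higher, beside 35.8% and 12.6% of all genes not tested, and 6 had no count at day 90. Among them were ANPEP (110527035), with 134 counts at day 1 and none at day 90, at least 32.8-fold lower, and ANPEP (110493779), with 192 and 1, a normalized ratio of 141 with an exact 95% interval of 25.0 to 5606. No member was without a count at day 1.

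Copies of a gene were read against each other, since the salmonid genome keeps many duplicates. Counting symbols with at least 2 tested copies, there were 22 such families among the glutathione genes. Every tested copy was higher in 6 of them, among which were GPX7, GPX8, GSTP1, IDH1 and MGST3, and lower in 2, GCLM and SMS, and 3 held calls in both directions, ANPEP, GGT5 and RRM1. Over all genes with such copies, 17.7% of 8058 families were higher in every tested copy, 20.02% were lower in every tested copy and 13.6% held both directions, beside 27.3%, 9.09% and 13.6% of the 22.

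Other antioxidant genes gave the setting for these changes. A list of 82 partner genes took in thioredoxins and their reductases, glutaredoxins, peroxiredoxins, sulfiredoxin, superoxide dismutases, catalase, Nqo1, sestrins, ferritin, glyoxalases, an esterase, the cystine exchanger, NRF2 with its regulators and the exporters of conjugates. Of these 70 were tested, 30 were higher, 16 were lower and 24 did not pass. That is 42.9% higher and 22.9% lower, beside 32.5% and 35.4% of all genes tested. The filter was met through day 1 alone by 9 of the 70, among them SRXN1 and PRDX1 (110508519). Through day 90 alone it was met by 5, among them ABCC1 (110485729) and keap1a (MSTRG.10278). The median log2 change was 0.28, and 65.7% were called, beside 67.9% of all genes. NFE2L2, the factor NRF2 that controls many transferase and ligase genes in mammals, rose in 2 copies, 101268905 by 1.05 ± 0.10 from 14.6 ± 1.3 to 23.1 ± 1.6 FPKM and 110501922 by 0.82 ± 0.12. A further copy, 110527610, was too low to test and lay lower at day 90, at 0.803 ± 0.025 and 0.0633 ± 0.055 FPKM. The gene 100500705 carries the same symbol but is described as a subunit of transcription factor NF-E2. It was too low to test as well and went from 0.900 ± 0.16 to 0.287 ± 0.20 FPKM. Of the NRF2 regulators on the list, keap1a (MSTRG.10278) rose by 1.71 ± 0.28 from 1.12 ± 0.49 FPKM and keap1b (110485638) by 0.81 ± 0.13. The regulator gene keap1b (118938209) did not pass, at -0.18. The gene 110508103, which carries the symbol Bach1 but is described as BACH2-like, did not pass either, at 0.50. The Bach1 copies described as BACH1-like, 110533253 and 110510280, were too low to test. They went from 0.480 ± 0.017 to 0.827 ± 0.068 FPKM and from 0.657 ± 0.040 to 0.727 ± 0.28 FPKM. Nqo1, a classical NRF2 target in mammals, rose in both copies, by 1.12 ± 0.11 (110519426) and 1.08 ± 0.11 (110513842). Thioredoxin txn (110531622) read 29.7, 30.5 and 33.2 FPKM at day 1 and 220.7, 162.1 and 131.8 at day 90. Its change was 2.86 ± 0.22 (edgeR adjusted p = 3.4e-06). Of the other txn copies, 110500479 rose by 1.08 ± 0.10. The copies 118936858 and 110512820 did not pass, at 0.50 ± 0.24 and 0.29 ± 0.39. Extracellular superoxide dismutase SOD3 rose by 3.51 ± 0.19 from 5.31 ± 1.5 FPKM. The peroxiredoxins PRDX5 rose by 1.71 ± 0.12 (110509975) and 1.58 ± 0.14 (110533987). The exporter ABCC1, which carries glutathione conjugates out of cells, rose most in 110485729, by 2.57 ± 0.20 from 0.850 ± 0.19 FPKM, and did not pass in 110515631, at 0.21. The sulfiredoxin gene SRXN1, another NRF2 target of mammals, fell by 1.10 ± 0.24 from 2.78 ± 0.28 FPKM. Of 4 tested PRDX1 copies 2 fell, 110508519 by 2.12 ± 0.31 and 110485699 by 0.59 ± 0.11, and 2 rose. The rises were 0.82 ± 0.10 in 100135912 and 0.40 ± 0.12 in 110493450, the latter a call lost, at 0.33 to 0.41, without replicate 1 or 2 of day 1 or replicate 2 of day 90, and lost with library sizes alone.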

How the data were processed

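RNA of 3 libraries per age was extracted with Trizol from frozen skin, per the labels' protocols. Per the submitters' processing notes Bowtie2 2.2.8 and TopHat2 2.1.1 were used; how reads were counted, on which genome build and with which rule for strand and multiple matches is not stated there or in the labels. Per the file headers the authors deposited whole-number counts, FPKM, and for each gene a log2 fold change between the ages with its FDR, an adjusted p-value. The members and lists were chosen with earlier results of these data known.

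The test took genes reaching 1 FPKM in 3 or more of the 6 libraries, 29436 of 43862. Counts were scaled by TMM and fitted on age alone with edgeR 4.0.16 under R 4.3.3. SE was taken as the log2 change divided by the root of F. The floor is 3 counts over an age, and intervals are exact binomial at 95%. Alternatives used DESeq2 1.42.0, limma 3.58.1, other scalings and filters, a replicate block and each library left out. All 80 NCBI gene numbers of members matched the RefSeq table of USDA_OmykA_1.1, used for names and gene order alone, and 10 members had none. Product names of 32 members came from another species.

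Members named in the text were, for each role, the 3 of highest mean FPKM and, among called members without overlap, the 2 largest rises and 2 largest falls. GCLC, GCLM, GSS, GSR, GPX1, GPX4 and GSTP1 were added at their most abundant copy. The values of 1 gene are not reported here. Further members and the partner genes named were chosen after their values were seen.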

Additional observations from a re-analysis of the deposited data

How the results depend on the processing

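Fits with library sizes alone, and limma on log2(FPKM + 1) or log2(FPKM + 0.1), had medians over all genes of -0.43, -0.33 and -0.41. Transferases then gave 1 lower call in each in place of 0, reduction and NADPH supply 4, 4 and 5 higher calls in place of 8, and the partner list 25, 26 and 26 lower calls in place of 16. Over all 29436 genes tested the lower calls went from 10417 to 14887, 14949 and 14792. The higher calls over all genes went from 9565 to 5941, 6084 and 5989. Breakdown enzymes gave 3 higher calls in place of 5 with library sizes alone and with log2(FPKM + 0.1), and 11 lower in place of 7 with log2(FPKM + 1). Of the members' calls 55.6% and 56.6% were higher in the limma fits, beside 28.9% and 28.8% of the calls over all genes.

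Without a filter, breakdown enzymes gave 12 lower calls, reduction and NADPH supply 1 in place of 0, and the N-acetyltransferases 2 in place of 1, also 2 with filterByExpr. With FPKM of at least 5, 54 members were left, with 12 lower calls in place of 19, and breakdown enzymes gave 1 higher and 2 lower, since fewer genes were tested. Lower calls over all genes were 14221 of 42269 without a filter and 13115 of 36052 with filterByExpr. With FPKM of at least 5 they were 5036 of 13460.

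Leaving out each library in turn gave 0 to 1 higher calls in synthesis enzymes, 3 to 5 higher in breakdown enzymes and 3 to 5 lower in polyamine and nucleotide enzymes. The higher synthesis call came without replicate 1 of day 90 (Gclc 110499382). The 3 higher breakdown calls came without replicate 2 of day 90, and 4 were left without replicate 1 or 3 of day 90. The 3 lower polyamine and nucleotide calls came without replicate 3 of day 1 or replicate 2 of day 90, and 4 were left without replicate 2 of day 1 or replicate 3 of day 90.

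Of the called genes GSTO1 turned sign without being called, to -0.10 with library sizes alone and in both limma fits. The other named changes that turned sign had not passed the threshold. With library sizes alone, log2(FPKM + 1) and log2(FPKM + 0.1), GSS was at -0.18, -0.14 and -0.16, Gclc (110499382) at -0.16, -0.18 and -0.20, IDH2 (110521263) at -0.19, -0.22 and -0.22, and NAT8 (110528564) at -0.19, -0.17 and -0.22. Leaving out each library in turn, Gclc ran from -0.0449 (without replicate 3 of day 90) to 0.41, NAT8 from -0.12 (without the same library) to 0.32, and IDH2 from -0.13 (without replicate 1 of day 90) to 0.35. Apart from the construction of the filters and scalings, the cause was not tested.

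Same-numbered replicates deviated with correlations of -0.09, 0.00 and -0.12, which gave no sign of pairing. Correlations of deviations from the mean of 3 libraries cannot exclude it. A replicate block gave 39 higher and 16 lower members in place of 41 and 19, among them 17 higher transferases and 2 lower synthesis enzymes. GGT7, GSTO1, HPGDS, GCLM (110521555) and SMS (110534059) lost their calls. Of 270 counts over roles and alternatives 247 stayed within 1.5 times. The filter of 1 FPKM left 13 members untested, and the folds given for them cover counting error only. Without a filter all 90 members were tested, and with filterByExpr 85.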

Other observations

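In the authors' deposited table GSTO1 (100301789) had a log2 fold change of -0.09 with an FDR of 0.048, and MGST1 (110527633) 0.07 with an FDR of 0.023. For 12 of the 77 tested genes the sign of the FPKM ratio differed from that of the TMM change, and GSTO1 was the only called gene among them.

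Symbols and product names disagreed for some members. The gene with the symbol GPX2 (MSTRG.27816) was described as glutathione peroxidase 1b1, and Gpx6 (110531565) had the RefSeq symbol gpx9.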
